A study of Mus musculus with 6 samples.

Results

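The subunits of the oxidative phosphorylation (OXPHOS) machinery that are encoded in the nucleus were examined in cultured fibroblasts from WT and Aff3ir-ORF2-/- mouse embryos (MEFs). Members were chosen by gene symbol (the Nduf, Sdh, Uqcr, Cox4 to Cox8 and Atp5 series with Cyc1 and Cycs), which took 83 of the 17092 genes in the table of counts. They were grouped by complex, with 35 genes in complex I, 4 in complex II, 9 in complex III, 17 in complex IV and 17 in complex V, and Cycs alone as the carrier between complexes III and IV. Ndufa4, which was first described in complex I, was placed with complex IV, where its protein is now known to reside.

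RNA of 3 libraries per genotype was sequenced to ask what the loss of Aff3ir-ORF2, a product of a gene nested inside Aff3, does to the transcriptome. The Aff3ir-ORF2-/- line is a global knockout made by injecting Cas9 mRNA and guide RNAs into fertilized eggs, with founders bred to WT mice and heterozygotes intercrossed. No shear stress or other treatment is named for these libraries, and the number of embryos behind them is not given in the sources used here. Nothing in the labels says that the libraries came from separate cultures or embryos, so the p-values measure the spread between these libraries, which may be technical.

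Complex I (NADH dehydrogenase) and complex II (succinate dehydrogenase) feed electrons to ubiquinone, complex III passes them to cytochrome c, and complex IV (cytochrome c oxidase) reduces oxygen. The proton gradient built along the way drives complex V (ATP synthase). Mitochondrial DNA encodes part of the core of every complex but complex II, and the nuclear genes supply the remaining subunits, which have to be matched to them in amount. None of the mitochondrially encoded subunit genes was among the genes of the table, so their transcripts were not analysed here.

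Total counts ranged from 17435133 to 17726034 in the WT libraries and from 18209421 to 18252330 in the Aff3ir-ORF2-/- libraries. The WT libraries differed from each other by little more than counting noise, with a biological coefficient of variation of 0.0185 against 0.0996 among the Aff3ir-ORF2-/- libraries. All 18 fibroblast markers were expressed in both genotypes. In Aff3ir-ORF2-/- MEFs 5 were higher (27.8%, against 29.4% of all tested genes) and 6 lower (33.3%, against 27.6%). Among the lower ones was the collagen gene Col1a1, with 126402 to 130083 counts in WT libraries against 82003 to 119319 in Aff3ir-ORF2-/- libraries. Among the higher ones was Lum, with 241 to 278 counts in WT libraries against 728 to 1917 in Aff3ir-ORF2-/- libraries. Of 18 macrophage markers, 17 could be tested and all 17 were higher in Aff3ir-ORF2-/- MEFs. Several, such as Mrc1 (4, 4 and 3 counts in WT libraries) and Spi1 (3, 1 and 2), passed the count filter only through their Aff3ir-ORF2-/- counts. For these, being tested already meant being higher. The 18 markers together took 0.0026% to 0.00296% of the counts of a WT library and 0.137% to 0.235% of those of an Aff3ir-ORF2-/- library, and 2 of them, Fcgr1 and Aif1, were at 0 in every WT library. The part of macrophage RNA in the results on the subunit genes was not tested, and in bulk RNA fewer cells of a type cannot be told apart from less RNA per cell.

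The OXPHOS subunit genes differed little between the genotypes. Of the 83 genes, 78 had enough counts to be tested with edgeR's quasi-likelihood test, and the other 5 are tissue-restricted forms of complex IV subunits with few counts. At a Benjamini-Hochberg adjusted p under 0.05, 18 members were higher in Aff3ir-ORF2-/- MEFs (23.1%, against 29.4% of all 13075 tested genes) and 8 were lower (10.3%, against 27.6%), while 52 passed in neither direction. None of the 78 changed by at least 1.5-fold, whereas 14.3% of all tested genes were higher and 7.32% lower by that margin (21.6% in all). The fold changes ran from a log2 value of -0.20 for Atp5c1 to 0.31 for Cox6b1, with a median of 0.028 beside 0.006 for all tested genes. For all 78 members the 95% interval of the fold change lay inside 1.5-fold in either direction, which held for 58.3% of all tested genes. The members are abundant transcripts, and their median absolute log2 fold change was 0.11, against 0.22 for the 8311 tested genes of the same range of abundance. Of those 8311 genes 26.5% were higher and 34.3% lower, and 12.7% were called with a change of at least 1.5-fold. Their median log2 fold change was -0.045.

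**Figure D1:**
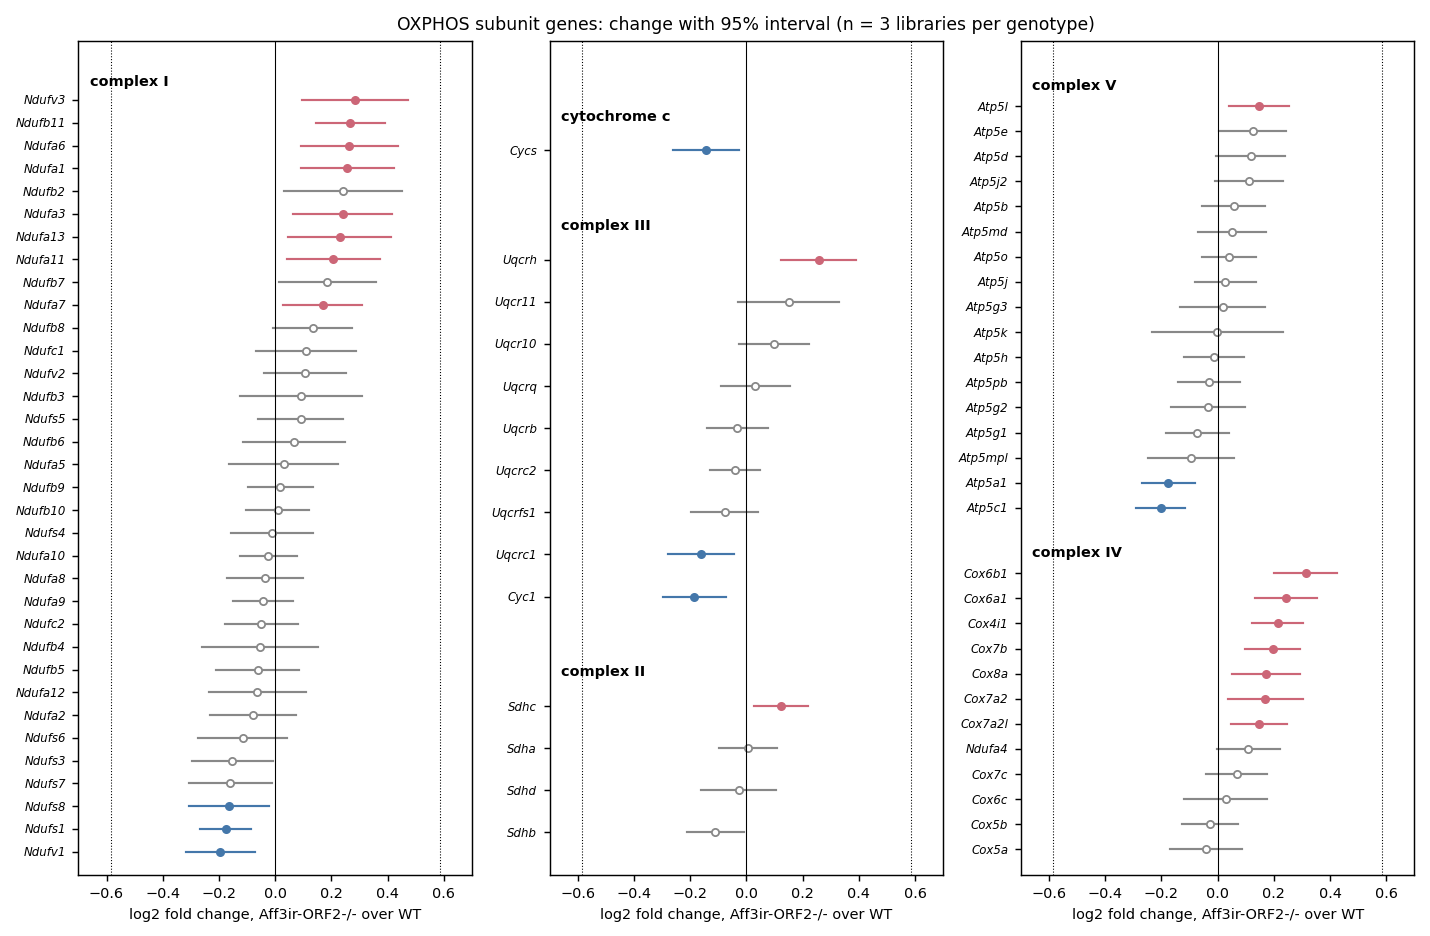
Log2 fold change of 77 of the 78 tested OXPHOS subunit genes, Aff3ir-ORF2-/- over WT, with the 95% interval, by complex; filled points passed an adjusted p of 0.05 (red higher, blue lower), open grey points did not, and dotted lines mark a 1.5-fold change. Every interval lies between the dotted lines, 7 of 12 complex IV genes are red, and the lowest genes of complexes I, III and V are blue.

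All normalised counts of one genotype lay above all those of the other for 24 members that were higher in Aff3ir-ORF2-/- libraries (33.3% of all tested genes) and 13 that were lower (32.7%). The number of higher calls rested in part on single libraries and on the scaling. It was 6 without WT replicate 3, 11 without WT replicate 2, 28 without Aff3ir-ORF2-/- replicate 2 and 10 with DESeq2's Wald test. Of all tested genes 24.5%, 24.1%, 30.9% and 25.2% were higher in these fits. The lower calls numbered 5 without WT replicate 1, where 22.2% of all tested genes were lower. Scaling by the upper quartile or by total counts gave 25 higher and 6 lower (80.6% of the calls higher, against 69.2%). Correcting for transcript length and GC content gave 13 higher and 11 lower (54.2%). Over all tested genes 57.0%, 55.8% and 49.7% of the calls were higher in these fits, against 51.6% in the reported fit. All 26 called genes kept their direction in each of the 16 alternatives, and 11 also passed the threshold in each of them. These 11 were Cox6b1, Cox6a1, Cox4i1, Cox7b, Ndufb11 and Uqcrh, which were higher, and Atp5c1, Atp5a1, Ndufs1, Ndufv1 and Cyc1, which were lower.

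**Figure D2:**
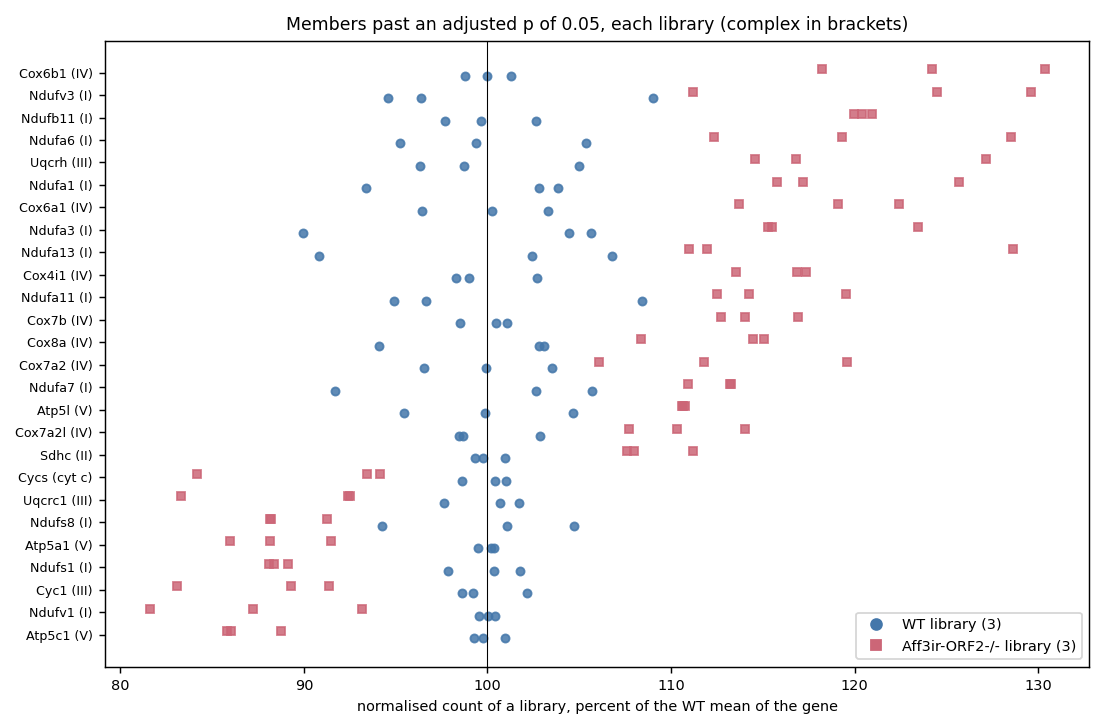
Normalised count of each library, as a percent of the WT mean of the gene, for the 26 members past an adjusted p of 0.05, with 3 WT libraries (blue circles) and 3 Aff3ir-ORF2-/- libraries (red squares) a gene. The genotypes do not overlap for any of the 26 genes, and for Cox6b1, Ndufb11 and Atp5c1 the gap is wider than the spread within either genotype.

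The summed level of the members gave the same picture. Counts were scaled to CPM, a count relative to the size of its library after edgeR's TMM scaling. Together the 83 genes reached 6769 ± 68.4 CPM in WT and 6835 ± 209.9 CPM in Aff3ir-ORF2-/- MEFs (SD, n = 3 each), and the libraries of the genotypes overlapped. The sums of complexes I, II, III and V overlapped as well, although as a percent of all counts, without TMM scaling, complex I did not (0.149 ± 0.0023 in WT, 0.153 ± 0.0022 in Aff3ir-ORF2-/- MEFs). Complex IV did not overlap, with 1061, 1046 and 1018 CPM in WT and 1153, 1130 and 1172 CPM in Aff3ir-ORF2-/- libraries, a ratio of 1.11. Cytochrome c, a single gene, lay on the other side, with all Aff3ir-ORF2-/- libraries below all WT libraries.

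**Figure D3:**
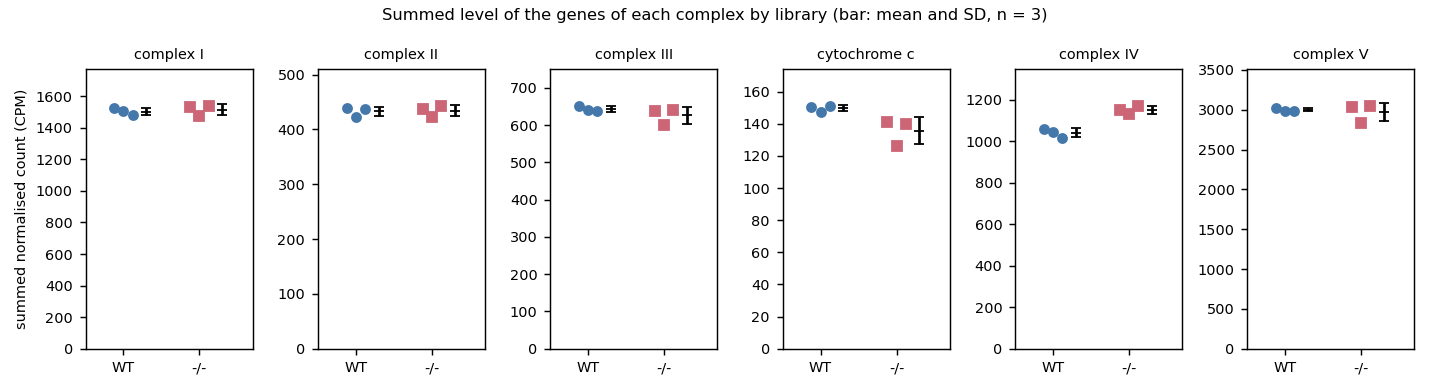
Summed normalised counts (CPM, linear axes from 0) of the genes of each complex in each library, WT in blue and Aff3ir-ORF2-/- in red, with the mean and SD of 3 libraries as a black bar. The genotypes separate for complex IV (1042 against 1152 CPM on average) and for cytochrome c (149.7 against 135.6 CPM) and overlap for the other complexes.

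Per kilobase of transcript, the levels in WT differed between the complexes. The median gene reached 50.3 CPM per kilobase in complex I, 69.2 in complex II, 84.0 in complex III, 128 in complex IV and 124 in complex V. The highest level was that of Atp5b, the catalytic beta subunit of ATP synthase, with 553 CPM per kilobase. Cox4i1, the largest nuclear subunit of cytochrome c oxidase, led complex IV with 293 CPM per kilobase.

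The promoters of OXPHOS genes are known for binding sites of NRF1 and of the ETS factor GABPA, regulators of respiratory genes. A RefSeq promoter (GRCm38.p6) was matched for 68 of the 83 members, and the 250 bases before the start were searched on both strands. A gene was counted if any of its promoters held the motif. The NRF1 motif, GCGCA and GCGC separated by 1 base of any kind, was present in 13 members (19.1%). It was present in 7.43% of the genes of the count table that had a promoter and in 4.23% of all genes with a promoter. The ETS motif CCGGAAG was present in 12 (17.6%, against 12.7% and 7.83%), the ERR motif CAAGGTCA in 3 (4.41%, against 1.24% and 1.51%) and the YY1 motif AAGATGGCG in 1 (1.47%, against 1.06% and 0.71%). Some windows of 30 bases are shown for the genes with the largest rise and the largest fall, for Cox6a1, whose promoter holds both motifs, and for Uqcrh, the called gene of complex III that was higher. All lie on the minus strand and are written 5′ to 3′ along the gene, with the motif in capitals, and CTTCCGG is the ETS motif read from the other strand. The windows are chr7:30626124-30626153 for Cox6b1, chr5:115348959-115348988 (ETS) and chr5:115349101-115349130 (NRF1) for Cox6a1, chr4:116075071-116075100 for Uqcrh and chr2:10080433-10080462 for Atp5c1.
Cox6b1, ETS: tcctctcgcagCTTCCGGccagtcggaatt
Cox6a1, ETS: cgtccccatttccgCTTCCGGcgcgccggt
Cox6a1, NRF1: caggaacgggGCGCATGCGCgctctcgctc
Uqcrh, ETS: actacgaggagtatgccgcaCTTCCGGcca
Atp5c1, NRF1: cgcctgagctcccGCGCACGCGCactgagt

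Members with and without these letters overlapped in their fold changes. Of the 12 with the ETS motif, all tested, 4 were higher (33.3%, against 29.4% of all tested genes) and 0 lower (against 27.6%). Their median log2 fold change was 0.14. Of the 53 tested without it 12 were higher (22.6%) and 5 lower (9.43%), with a median of 0.031. Of the 13 with the NRF1 motif, 2 were higher (15.4%) and 1 lower (7.69%), with a median of -0.012. Of the 52 tested without it 14 were higher (26.9%) and 4 lower (7.69%), with a median of 0.080. A match is a description of the sequence, not of binding.

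Complex IV held the largest share of higher genes among the 5 complexes. Of its 12 tested genes, 7 were higher in Aff3ir-ORF2-/- MEFs (58.3%, against 29.4% of all tested genes) and 0 were lower, and the median log2 fold change was 0.16. Leaving out WT replicate 3 brought the higher genes to 4. Cox6b1, a small subunit on the intermembrane side, had 70.1, 68.4 and 69.2 CPM in WT and 86.0, 81.8 and 90.2 CPM in Aff3ir-ORF2-/- libraries. Each Aff3ir-ORF2-/- library was thus above each WT library, and the gene was higher by 24.3% (log2 fold change 0.31 ± 0.049 SE, adjusted p = 0.000694), the largest rise among the 78 tested members.

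Cox4i1, known for binding adenine nucleotides, had 224, 216 and 214 CPM in WT and 256, 247 and 255 CPM in Aff3ir-ORF2-/- libraries. It was higher by 15.9% with no overlap (log2 fold change 0.21 ± 0.041, adjusted p = 0.00207). Cox6a1, the broadly expressed form of subunit VIa, had 83.2, 80.7 and 77.6 CPM in WT and 98.6, 95.9 and 91.6 CPM in Aff3ir-ORF2-/- libraries. The genotypes were apart here too, with a rise of 18.4% (0.24 ± 0.048, adjusted p = 0.00256). Cox7b, an accessory subunit of the membrane part, had 62.7, 61.5 and 63.1 CPM in WT and 71.2, 70.4 and 73.0 CPM in Aff3ir-ORF2-/- libraries and was higher by 14.5% (0.20 ± 0.043, adjusted p = 0.00438).

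The remaining called genes of the complex rose by less. They were Cox8a (12.6%, adjusted p = 0.0216), Cox7a2 (12.5%, adjusted p = 0.0352) and Cox7a2l (10.7%, adjusted p = 0.0187), whose product links complexes III and IV into supercomplexes. Cox7a2 was among 7 members with estimated counts that were not whole, a sign that reads were shared with another gene, so its value is less certain. Ndufa4 had 72.7, 74.2 and 68.6 CPM in WT and 76.1, 75.8 and 80.4 CPM in Aff3ir-ORF2-/- libraries, which did not overlap but missed the threshold (adjusted p = 0.0904). Cox5a and Cox5b, which join the enzyme early in its assembly, had log2 fold changes of -0.042 and -0.028, and Cox6c and Cox7c had 0.028 and 0.067. None of these 4 passed the test, and the intervals of Cox5a (-0.17 to 0.087) and Cox5b (-0.13 to 0.073) lay below the point estimates of Cox6b1, Cox6a1 and Cox4i1.

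Complex I was described by role. The nuclear core subunits, which carry the flavin and the iron-sulphur clusters of the arm that reaches into the matrix, had a median log2 fold change of -0.16, with 3 of 7 lower (42.9%, against 27.6% of all tested genes) and 0 higher. The accessory subunits, which surround the core, had a median of 0.079, with 8 of 28 higher (28.6%, against 29.4%) and 0 lower. The difference between core and accessory subunits was not itself tested.

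Ndufv1, the subunit that binds NADH, had 91.2, 90.8 and 91.6 CPM in WT and 84.9, 74.4 and 79.6 CPM in Aff3ir-ORF2-/- libraries. All Aff3ir-ORF2-/- libraries were lower, and the gene fell by 12.7% (log2 fold change -0.20 ± 0.054, adjusted p = 0.0131). Ndufs1, the largest subunit of the complex and a carrier of iron-sulphur clusters, had 113, 109 and 112 CPM in WT and 98.3, 98.0 and 99.2 CPM in Aff3ir-ORF2-/- libraries. It fell by 11.5% without overlap (-0.18 ± 0.040, adjusted p = 0.00515). Ndufs8, another iron-sulphur subunit, was the third lower gene, near the threshold (-0.16 ± 0.062, adjusted p = 0.0490). Ndufs7 and Ndufs3 were also without overlap, with log2 fold changes of -0.16 and -0.15 that did not pass (adjusted p = 0.0630 and 0.0663). The core subunit Ndufv2 went the other way, with a log2 fold change of 0.11 that did not pass either (adjusted p = 0.181).

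Of the accessory subunits, Ndufb11, part of the membrane arm, was the clearest. It had 24.9, 24.5 and 25.7 CPM in WT and 30.1, 30.3 and 30.03 CPM in Aff3ir-ORF2-/- libraries. The gap was far wider than the spread within either genotype, and the gene was higher by 20.4% (log2 fold change 0.27 ± 0.055, adjusted p = 0.00295), though its estimated counts were not whole in at least 1 library. The other 7 higher genes were Ndufv3 (21.8%), Ndufa6 (20.1%), Ndufa1 (19.5%), Ndufa3 (18.1%), Ndufa13 (17.2%), Ndufa11 (15.4%) and Ndufa7 (12.5%), with adjusted p-values between 0.0151 and 0.0428. Ndufa13 also had estimated counts that were not whole, so its value is less certain. The higher accessory genes numbered 1 without WT replicate 3, 5 without WT replicate 2, without Aff3ir-ORF2-/- replicate 1 or without Aff3ir-ORF2-/- replicate 3, and 4 with DESeq2 or with the correction for GC content and length. Under that correction the lower core genes numbered 5.

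Complex II, the only complex with no mitochondrially encoded subunit, had log2 fold changes between -0.11 and 0.12. Sdha, the flavoprotein that oxidizes succinate, had 236, 223 and 234 CPM in WT and 235, 223 and 237 CPM in Aff3ir-ORF2-/- libraries, which overlapped almost in full (log2 fold change 0.005, interval -0.097 to 0.11). Sdhb, the iron-sulphur subunit, had 62.5, 61.4 and 63.2 CPM in WT and 56.9, 59.0 and 57.4 CPM in Aff3ir-ORF2-/- libraries. These did not overlap, but the difference missed the threshold (-0.11 ± 0.044, adjusted p = 0.0592). Of the membrane anchors, Sdhc had 67.5, 68.3 and 67.1 CPM in WT and 73.0, 75.2 and 72.7 CPM in Aff3ir-ORF2-/- libraries. It was higher by 8.93% (0.12 ± 0.042, interval 0.028 to 0.22, adjusted p = 0.0326), a call that held in 8 of the 16 alternatives. Sdhd had a log2 fold change of -0.028 (interval -0.16 to 0.10) with overlapping libraries. The intervals of Sdhc and Sdhd overlapped, and the difference between them was not tested.

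In complex III, 1 of 9 genes was higher (11.1%, against 29.4% of all tested genes) and 2 were lower (22.2%, against 27.6%). Uqcrh, the acidic hinge protein at which cytochrome c docks, had 53.6, 50.4 and 49.2 CPM in WT and 59.6, 58.5 and 64.9 CPM in Aff3ir-ORF2-/- libraries. All Aff3ir-ORF2-/- libraries lay above WT, and the gene was higher by 19.5% (log2 fold change 0.26 ± 0.059, adjusted p = 0.00538). Cyc1, the cytochrome c1 that hands electrons to cytochrome c, had 85.03, 82.5 and 82.1 CPM in WT and 74.3, 69.1 and 76.0 CPM in Aff3ir-ORF2-/- libraries. It fell by 12.1% (-0.19 ± 0.049, adjusted p = 0.0111). Uqcrc1, a core protein related to processing peptidases, had 155, 153 and 148 CPM in WT and 141, 127 and 140 CPM in Aff3ir-ORF2-/- libraries and fell by 10.6% (adjusted p = 0.0253). Its partner Uqcrc2 stood at -0.041 on the log2 scale (adjusted p = 0.394). The lower genes of the complex numbered 1 without WT replicate 1 and 1 without WT replicate 2, and the higher genes 2 without Aff3ir-ORF2-/- replicate 2.

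Cycs, cytochrome c itself, is the mobile carrier and, once released from mitochondria, an activator of apoptosis. It had 150.3, 148 and 151 CPM in WT and 141, 126 and 139.9 CPM in Aff3ir-ORF2-/- libraries. Replicate 2 was the lowest, and none of the 3 reached a WT library. The gene fell by 9.42% (log2 fold change -0.14 ± 0.052, adjusted p = 0.0411) and passed the threshold in 9 of the 16 alternatives, with adjusted p-values from 0.0265 to 0.114.

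In complex V, 1 of 17 genes was higher (5.88%, against 29.4% of all tested genes) and 2 were lower (11.8%, against 27.6%). Atp5c1, the gamma subunit that forms the rotating shaft, had 174, 173 and 176 CPM in WT and 150.1, 149.7 and 155 CPM in Aff3ir-ORF2-/- libraries. The gap exceeded the spread of both genotypes, and the gene fell by 13.1% (log2 fold change -0.20 ± 0.039, adjusted p = 0.00216), the largest fall among the 78 tested members. Atp5a1, the alpha subunit of the catalytic ring, had 593, 598 and 599 CPM in WT and 526, 513 and 546 CPM in Aff3ir-ORF2-/- libraries and fell by 11.5% (-0.18 ± 0.042, adjusted p = 0.00686). Atp5b, the beta subunit that alternates with alpha in the same ring, had 1074, 1044 and 1060.1 CPM in WT and 1147, 1041 and 1118 CPM in Aff3ir-ORF2-/- libraries. These overlapped, with a log2 fold change of 0.057 (interval -0.056 to 0.17, adjusted p = 0.353), and the upper bound of the interval of Atp5a1, at -0.080, lay below the lower bound for Atp5b.

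Atp5l, subunit g of the membrane part, had 81.1, 73.9 and 77.4 CPM in WT and 85.8, 85.7 and 85.7 CPM in Aff3ir-ORF2-/- libraries. It was higher by 10.7% (log2 fold change 0.15 ± 0.047, adjusted p = 0.0257), a call that was absent with DESeq2, with no filter, or when WT replicate 2, WT replicate 3, Aff3ir-ORF2-/- replicate 1 or Aff3ir-ORF2-/- replicate 3 was left out. Upper quartile scaling and total counts gave 4 higher genes in the complex, and 5 were higher without Aff3ir-ORF2-/- replicate 2. Atp5g1, Atp5g2 and Atp5g3 encode the same mature c subunit of the rotor with different import sequences, and their log2 fold changes of -0.072, -0.034 and 0.018 did not pass the test. Their ratios to each other differed by at most 0.086 on the log2 scale between the genotypes (exact permutation test, two-sided, raw p = 0.3 to 0.7).

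Several complex IV subunits have a second form with restricted expression, and in these MEFs those forms were at the edge of detection. Cox4i2, a form found in lung and in perivascular cells, had 2, 3 and 2 counts in WT libraries against 7, 9 and 7 in Aff3ir-ORF2-/- libraries, a ratio of 3.11 of the summed counts (95% exact interval 1.29 to 8.59, which covers counting error only). Cox7a1, the form of heart and skeletal muscle and of brown fat, had 3, 1 and 1 counts in WT libraries against 10, 10 and 10 in Aff3ir-ORF2-/- libraries (ratio 5.68, interval 2.18 to 18.8). Cox6b2, the testis form, had 3, 6 and 6 counts in WT libraries against 4, 20 and 13 in Aff3ir-ORF2-/- libraries, which overlapped (ratio 2.34, interval 1.25 to 4.58). Without Aff3ir-ORF2-/- replicate 1, which had the lowest count of its genotype, Cox6b2 was tested and was higher (log2 fold change 1.61, adjusted p = 0.0149). The gene entered that test through the high counts of Aff3ir-ORF2-/- replicates 2 and 3, so the p-value is no separate support for a rise. Cox6a2, the muscle form, had 6, 4 and 3 counts against 4, 5 and 3, and Cox7b2 had a single count, in WT replicate 1.

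All 5 failed the filter on low counts. With no filter, Cox4i2 and Cox7a1 passed the test with log2 fold changes of 1.57 and 2.41 (adjusted p = 0.0264 and 0.00480). As ratios to the common forms, Cox4i2 over Cox4i1 was higher by 1.25 and Cox7a1 over Cox7a2 by 2.15 on the log2 scale, in each case with all Aff3ir-ORF2-/- libraries above all WT libraries. Either comparison gave an exact permutation p of 0.1, the smallest that 3 against 3 libraries allow, and 0.4 after adjustment over 8 ratios. Even in Aff3ir-ORF2-/- MEFs Cox4i2 stayed below 1 CPM beside 253 CPM of Cox4i1. Of the pericyte and smooth muscle markers, 8 of 9 tested were higher, and the 11 listed took 0.436% to 0.445% of WT counts and 0.749% to 0.806% of Aff3ir-ORF2-/- counts. Of the muscle markers 3 of 7 tested were higher (24 were listed), and of the brown and beige adipocyte markers 4 of 5 tested (12 were listed), beside 29.4% of all tested genes. The pericyte marker Rgs5 (7, 4 and 4 counts in WT libraries) and the adipocyte marker Ppara (10, 8 and 8) passed the filter only through their Aff3ir-ORF2-/- counts. Some genes of the muscle and adipocyte lists were at or near 0, with at most 1 count of Myf5 or Pax7 and at most 2 counts of Ucp1 or Adipoq in any library. Others rose and 0 tested genes of either list were called lower. A negative log2 fold change was found in 3 of the 7 tested muscle markers, among them Mylpf (-0.795, adjusted p = 0.0611). Of the 5 tested adipocyte markers 1 was negative, Pparg (-0.579, adjusted p = 0.0876). The libraries of the genotypes did not overlap for Mylpf or Pparg. Des had 189, 191 and 189 counts in WT libraries against 889, 1061 and 707 in Aff3ir-ORF2-/- libraries. Dio2, of the adipocyte list, had 26, 32 and 32 counts against 172, 313 and 388. The part of these marker genes' cell types in the counts of the low forms was not tested.

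Across the 78 tested members, short transcripts tended to have the higher fold change. Transcript length, taken from the GENCODE M21 annotation, had a Spearman correlation of -0.46 with the log2 fold change over the members (Pearson's r with log2 length -0.48), which share libraries and are not independent. Over the 12892 tested genes with a length the Spearman correlation was -0.013. Of the 56 members under 1000 bases, a limit set after the values were seen, 15 were higher and 1 lower, with a median log2 fold change of 0.079. Of the 22 longer members, 3 were higher and 7 lower, with a median of -0.042. Among all tested genes under 1000 bases 26.0% were higher and 23.2% lower, and among those of 1000 bases and over 30.1% were higher and 28.4% lower. The lower genes of complexes I, III and V are mostly among the longer transcripts, so length and role cannot be told apart here.

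**Figure D4:**
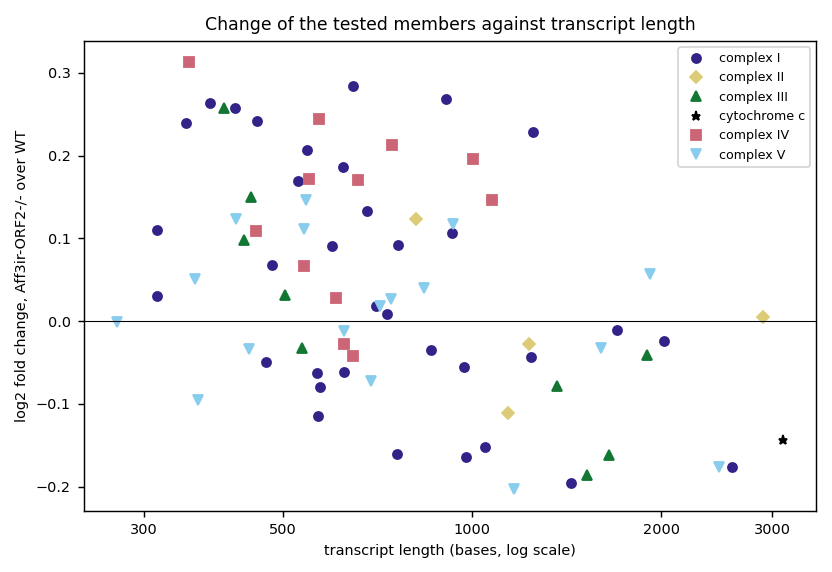
Log2 fold change of 77 of the 78 tested members, Aff3ir-ORF2-/- over WT, against transcript length in bases (log scale), with a symbol for each complex. Genes under 1000 bases mostly lie above 0 and most longer ones at or below 0, with a Spearman correlation of -0.46 over all 78.

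Other genes of the pathway were taken from lists. Of 49 tested assembly factors, 8 were higher (16.3%, against 29.4% of all tested genes) and 10 lower (20.4%, against 27.6%), with a median log2 fold change of -0.061. Higd1a, a small protein that binds complex IV, was higher (0.42 ± 0.070, adjusted p = 0.000961), as was Coa5, a complex IV assembly factor (0.27 ± 0.047, adjusted p = 0.00115). Cox10, which makes the heme of complex IV, was lower (-0.37 ± 0.078, adjusted p = 0.00342), as was Ndufaf4, an assembly factor of complex I (-0.38 ± 0.057, adjusted p = 0.000524).

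Of 18 tested regulators of mitochondrial gene expression, 5 were higher (27.8%, against 29.4% of all tested genes) and 7 lower (38.9%, against 27.6%). The higher ones numbered 2 without WT replicate 2 and 3 without WT replicate 3, without Aff3ir-ORF2-/- replicate 1 or without Aff3ir-ORF2-/- replicate 3. Gabpa, the ETS factor named above, had 2033, 2178 and 2185 counts in WT libraries against 1699, 1676 and 1655 in Aff3ir-ORF2-/- libraries and fell by 0.42 on the log2 scale (SE 0.044, adjusted p = 6.88e-05). Myc, a broad activator of growth genes, fell by 1.32 (SE 0.068, adjusted p = 2.88e-06), and Pprc1, a coactivator of the PGC-1 family, fell by 0.35 (adjusted p = 0.00134). Yy1 was higher (0.35 ± 0.060, adjusted p = 0.00108). Nrf1, named for its motif above, stood at -0.19 on the log2 scale and missed the threshold (adjusted p = 0.0816).

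The mitochondrial ribosomal proteins, which translate the mitochondrially encoded subunits, had a negative log2 fold change in 66 of 78 genes. Of the 78, all tested, 27 were lower (34.6%, against 27.6% of all tested genes) and 2 were higher (2.56%, against 29.4%), with a median log2 fold change of -0.13. Mrps35 (-0.63 ± 0.082, adjusted p = 0.000262), Mrpl40 (-0.46), Mrps5 (-0.42) and Mrps18b (-0.41) had the smallest adjusted p-values. The higher genes numbered 1 without WT replicate 1, WT replicate 3 or Aff3ir-ORF2-/- replicate 1 and 4 without Aff3ir-ORF2-/- replicate 2, while the number of lower genes stayed within 1.5 times under every alternative. The difference between this list and the OXPHOS subunits was not tested.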

How the data were processed

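Sequencing on a DNBSEQ instrument gave paired-end reads, which the authors filtered with SOAPnuke. The authors deposited estimated counts per gene and library, without normalization. The submitters' processing notes name the genome build mm8, and the aligner, counter and annotation are not given in the sources used here. In each library 10.6% to 11.3% of these counts were fractional, and all were rounded. Every library was assigned to a genotype by its label. Genes passing filterByExpr (minimum count 10, minimum total 15) were tested with edgeR 4.0.16 (quasi-likelihood test, TMM scaling, Benjamini-Hochberg over 13075 genes), in R 4.3.3, without covariates. The edgeR fit was tested on simulated data with 3-fold changes and equal spread in both genotypes, and it recovered the changed genes. Those changes are larger than that of any tested member, so the simulation does not measure how well changes of the members' size are found. Alternatives were other scalings and filters, DESeq2 1.42.0, limma 3.58.1 voom with quality weights, a replicate block, a correction for GC content and length (98.6% of tested genes had a length), leaving out each library and, added after seeing the data, robust dispersions. The length and GC correction was centred after a first version had shifted the median of all genes. Motifs were sought in RefSeq promoters, and lengths are those of the lower-median protein-coding GENCODE M21 transcript.

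The members and lists were chosen with earlier results of these data known. Members were named by a rule: in each complex the 3 smallest adjusted p-values and the 2 highest counts, all Sdh genes, Cycs and the isoforms compared, and in other lists up to 4 genes by adjusted p and 2 by counts. Other members are named where a count needed them, after their values were seen. Ratios of isoforms were compared with exact two-sided permutation tests. Aff3ir was not analysed here, and 1 member is counted but not reported here. Figures were drawn with matplotlib 3.10.9.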

Additional observations from a re-analysis of the deposited data

How the results depend on the processing

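For the 83 subunit genes, the values that moved were these. The higher calls, 18 in the reported fit, numbered 10 with DESeq2's Wald test and between 6 and 28 when a library was left out, and the lower calls, 8 in the reported fit, between 5 and 9. Of all tested genes 24.1% to 30.9% were higher and 22.0% to 30.2% lower when a library was left out. By 1.5-fold, 2 members were higher with no low-count filter and between 0 and 1 when a library was left out. With upper quartile scaling the median log2 fold change of all members was 0.065, that of complex II 0.026 and that of complex V 0.054, and with total counts only that of complex V was 0.046. Leaving out a library gave medians from -0.047 to 0.025 for complex II and from -0.031 to 0.053 for complex V. The higher genes of complex IV numbered between 4 and 8 when a library was left out, those of the accessory subunits of complex I between 1 and 11, and the lower core genes between 2 and 3. The higher accessory genes were 5 with no filter, 4 with DESeq2 and 4 with the correction for GC content and length, under which 5 core genes were lower. Some uncalled members changed sign, with adjusted p-values from 0.651 to 0.994: Atp5g2 (0.003 with upper quartile scaling), Atp5g3 (-0.014 without Aff3ir-ORF2-/- replicate 1, -0.037 without replicate 3, range -0.037 to 0.091 when a library was left out), Sdha (-0.009 with no filter, -0.023 without WT replicate 2, -0.010 and -0.014 without Aff3ir-ORF2-/- replicates 1 and 3, range -0.023 to 0.029) and Sdhd (0.009 with upper quartile scaling, 0.001 with total counts, 0.022 without Aff3ir-ORF2-/- replicate 2, range -0.081 to 0.022). The cause of these shifts was not tested. Of the other values of named members under the alternatives, 376 kept their direction and side of the threshold, 38 kept the direction but no longer passed and 8 passed where they had not. Libraries of the same number correlated at 0.039, 0.042 and 0.015 in their deviations, so the numbers were not taken to pair them, although 6 of 6 libraries correlated best with their own number. With the replicate block 15 members were higher and 7 lower. The 5 low forms of complex IV had at most 6 counts in a WT library and 20 in an Aff3ir-ORF2-/- library, which limits their precision.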

Other observations

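Beyond the respiratory chain, some mitochondrial enzymes and carriers had larger fold changes than any of the 78 tested OXPHOS subunits. Of 23 tested genes of the tricarboxylic acid cycle and its entry, 4 were higher (17.4%, against 29.4% of all tested genes) and 5 lower (21.7%, against 27.6%), or 3 lower without WT replicate 2. Idh2, the mitochondrial NADP-dependent isocitrate dehydrogenase, had 1700, 1695 and 1720 counts in WT libraries against 1172, 1244 and 1248 in Aff3ir-ORF2-/- libraries and fell by 0.56 on the log2 scale (SE 0.043, adjusted p = 1.56e-05). Suclg2, a subunit of succinyl-CoA ligase, fell by 0.44 (adjusted p = 5.61e-05). Pdk1, a kinase that restrains pyruvate dehydrogenase, had 175, 191 and 165 counts in WT libraries against 458, 804 and 432 in Aff3ir-ORF2-/- libraries (log2 fold change 1.59 ± 0.23, adjusted p = 0.000411), and Pdk3, a kinase of the same enzyme, was higher by 0.45 (adjusted p = 0.000238). With Pdk2 and Pdk4 these kinases were all 4 of the higher genes, so no enzyme of the cycle itself was called higher.

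Of 26 tested carriers, porins and import factors, 2 were higher (7.69%, against 29.4% of all tested genes) and 6 lower (23.1%, against 27.6%). The higher ones numbered 6 without Aff3ir-ORF2-/- replicate 2 and 5 with upper quartile scaling. Ucp2, an inner membrane carrier of the uncoupling protein family that is abundant in leukocytes, had 22, 24 and 38 counts in WT libraries against 174, 267 and 349 in Aff3ir-ORF2-/- libraries (log2 fold change 3.15 ± 0.30, adjusted p = 4.85e-05). Its counts and the macrophage markers moved in the same direction between the genotypes, and whether they share a source was not tested. Timm50, a receptor of the inner membrane translocase, fell by 0.43, Tomm70a, a receptor on the outer membrane, by 0.36, and Opa1, which fuses inner membranes, by 0.27. Of 6 tested subunits and regulators outside the symbol rule, Atpif1, the inhibitor of ATP synthase, fell by 0.15 (adjusted p = 0.0225) and Dmac2 by 0.35 (adjusted p = 0.0332), and no gene of this list was lower when any WT library was left out, with DESeq2 or with upper quartile scaling.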
